A study of Mus musculus with 3 samples.

Results

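Short lamina domains are described here: the autosomal intervals from 100 to 200 kb long in the list of lamina-associated domains (LADs) deposited for the sample labelled Dam-Lamin A. The list held 2004 autosomal intervals, and 614 of them (30.6%) fell within these limits. Together they covered 88.98 Mb, which was 7.01% of the listed autosomal length and 3.68% of the autosomal span of 2415 Mb. Both lists of the series held 4533 intervals on all chromosomes. The samples were mouse embryonic fibroblasts (C57BL/6, wild type), infected with retroviruses that carried Dam by itself (the control, labelled Dam Only) or as a fusion, Dam-Lamin A in one sample and Dam-Lap2b in the other. Each group had 1 sample, and all 3, the control included, carried the Dam enzyme. Since there were no replicates, no p-value is given for any comparison. The domains had been chosen from a list made from the measured signal, so their levels are a description.

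DamID tethers a bacterial adenine methyltransferase, Dam, to a protein of interest, and the DNA that comes near the protein is recovered as fragments cut at methylated GATC sites. Lamin A is an intermediate filament protein of the nuclear lamina and is also found in the nuclear interior. Lap2b is a lamina-associated polypeptide anchored in the inner nuclear membrane. LADs are mostly long, gene-poor and weakly transcribed regions at the nuclear periphery.

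The profiles held a log2 ratio for each of 6415372 features, with a median length of 258 bp, as GATC fragments would have. The values had the form of log2((fusion reads + 1)/(reference reads + 1)) plus a constant, with 1 reference common to both profiles. That reference is presumed to be the Dam Only library. The profile of the Dam-Lamin A sample is called here by its title, LMNA, and that of the Dam-Lap2b sample by its title, Lap2b. A value above 0 means more reads from the fusion than from the reference after scaling, and the 2 profiles are not independent of each other. Lower bounds of the reads behind the values were 139451980 (LMNA), 151511908 (Lap2b) and 153450617 (reference). A short domain held a median of 358 features, with 7607, 8778.5 and 5865.5 reads in that order. Values per domain are means of 10 kb bins with at least 5 features, and ± is the SD over domains, not over replicates.

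The labels of lists and profiles went together crosswise, and this touches every value below. Short intervals of the Dam-Lamin A list were above 0 in the profile labelled LMNA in 476 of 614 cases and in the profile labelled Lap2b in 613. The same rule applied to the Dam-Lap2b list gave 763 intervals, of which 738 were above 0 in the profile labelled LMNA and 702 in the one labelled Lap2b. Averaged over edges, the step from outside to inside was 0.90 in the profile labelled LMNA and 1.11 in that labelled Lap2b for the Dam-Lamin A list. For short intervals of the Dam-Lap2b list the steps were 1.505 and 0.61. Each list thus followed the profile of the other label more closely. Which of the labels is as meant was not tested, and both profiles are given throughout by their labels.

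The limits of the rule were close to the end of the list on one side only. The shortest domain measured 100194 bp (chromosome 11, 99528025 to 99628218, mm9, counted from 1), and no interval of the list was shorter. Its levels were 0.62 and 0.63 in the profiles labelled LMNA and Lap2b. The longest measured 199789 bp (chromosome 14, 120949655 to 121149443), with 0.56 and 0.23. The next interval above the limit measured 200370 bp (chromosome 2, 45832622 to 46032991), with -0.88 and 0.20. The numbers fell with length, from 153 domains of 100 to 120 kb over 138 and 116 to 103 of 160 to 180 kb and 104 of 180 to 200 kb. The median length was 142 kb.

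Short domains had the lowest levels of the list in both profiles. Their mean log2 ratio was 0.41 ± 0.54 in the profile labelled LMNA and 0.56 ± 0.33 in that labelled Lap2b (n = 614 domains). The levels rose with length. They were 0.74 and 0.79 in the 671 intervals of 200 to 500 kb, 1.11 and 1.15 in the 391 of 500 kb to 1 Mb, and 1.40 ± 0.39 and 1.46 ± 0.24 in the 328 of 1 Mb or longer. Autosomal bins outside both lists averaged -0.996 ± 0.77 and -0.90 ± 0.77 (SD over 106391 bins). Short domains therefore lay between the surroundings and the long domains, and their spread was wide, from -1.21 to 2.27 in the profile labelled LMNA and from -0.02 to 1.68 in that labelled Lap2b.

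**Figure D1:**
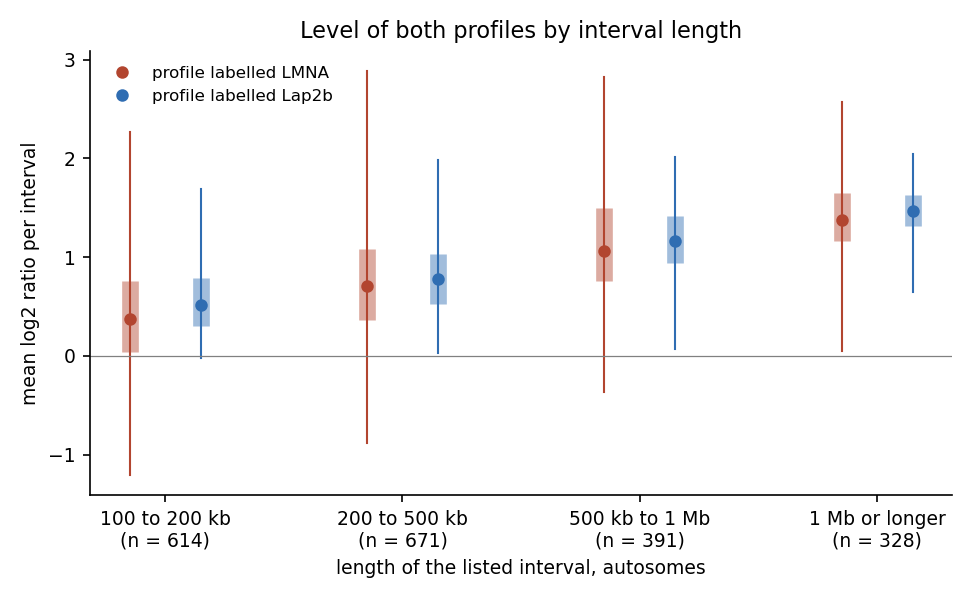
Mean log2 ratio per autosomal interval of the Dam-Lamin A list (y axis) by interval length (x axis), for the profiles labelled LMNA (red) and Lap2b (blue); points are medians, boxes the quartile range and lines the lowest to highest interval. The medians of short domains, 0.37 and 0.51, lie below those of every longer class.

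The ranges overlapped all the same. In the profile labelled LMNA, 55 short domains reached the first quartile of intervals of 1 Mb or longer (1.17), and in that labelled Lap2b 15 did (1.32). Only 7 reached the long-interval median in both. In the other direction, 397 short domains lay below the lowest of the long intervals in the profile labelled Lap2b, and 156 in that labelled LMNA.

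The sign of the level differed between the profiles in many short domains. In the profile labelled LMNA 77.5% were above 0, against 89.6% of all intervals of the list. In that labelled Lap2b 99.8% were, against 100% of all intervals after rounding. There were 137 domains below 0 in the profile labelled LMNA and above 0 in the other, and 0 with the opposite pattern. Over single bins the picture was the same. In short domains 70.8% of bins were above 0 in the profile labelled LMNA (54.2% of all autosomal bins) and 88.1% in that labelled Lap2b (57.7% of all). Bins above 0 in the profile labelled Lap2b alone made up 21.1% of the bins in short domains. They made up 6.19% of those in longer intervals and 6.44% of all autosomal bins. The list followed the profile labelled Lap2b more closely, so these imbalances between the profiles are tied to the choice of domains.

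Within single domains the signal was often patchy. Every bin was above 0 in 103 domains in the profile labelled LMNA, in 225 in that labelled Lap2b and in 79 in both. Fewer than 50% of the bins were above 0 in 133 domains in the profile labelled LMNA and in 3 in the other. Counts of this kind are not given for longer intervals. There 92.3% and 97.7% of bins were above 0, against 70.8% and 88.1% in short domains. The run of bins above 0 round the highest bin of each domain had a median length of 70 kb and 110 kb. A bin without a value also ended the run. That run ended inside the listed edges in 452 and 430 domains, passed 1 edge in 138 and 167 and passed both in 20 and 17, while 4 and 0 domains had no bin above 0. Such a run reached 1 Mb or more in 6 and 3 domains. Few short domains thus had their highest bin in a long unbroken stretch of positive signal. The listed edges come from the measured signal, so runs ending inside them were partly built into the choice. Runs were not computed for longer intervals.

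The profiles rose and fell together over the domains, with r = 0.81 and rho = 0.79 over 614 domains that share the reference library, which is a description without a test. The profile labelled Lap2b exceeded the other by 0.14 ± 0.33. It was higher in 417 domains (67.9%), beside 63.7% of all intervals of the list and 54.5% of all autosomal bins. The difference turned on how features were weighted, as shown by feature length further on. Within short domains, level depended little on length (r = 0.13 in both profiles).

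Short and long intervals differed more in reads of the reference than in reads of the fusions. This comparison was chosen after the levels had been seen. Reads are named here and below by the sample label of the profile that gave them, and that label was not tested. The median was 0.38 reads per kb after scaling to equal depth (reads per kb and per 1e6 library reads) for the Dam-Lamin A library, 0.41 for that of Dam-Lap2b and 0.27 for the reference in short domains. In intervals of 1 Mb or longer the medians were 0.44, 0.47 and 0.15, and in bins outside both lists 0.262, 0.281 and 0.504. Short domains thus had 0.858 and 0.883 times the fusion reads of long intervals and 1.79 times the reference reads. The reference was above the long-interval median in 603 of 614 short domains and above the long-interval maximum in 138. The reads also count in the denominator of both profiles, so these ratios restate the levels in parts.

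In a few domains single features held much of the reads, and these domains were also picked after their values were seen. The median share of the top feature was 3.18% of the Dam-Lamin A reads, and it passed 10% in 42 domains (3 by Dam-Lap2b reads and 25 by reference reads). The highest share was on chromosome 2 (69053184 to 69205195), where 1 feature of 227 bp held 68.1% of 15947 Dam-Lamin A reads. The domain on chromosome 2 from 22407235 to 22557213 had 4.49 depth-scaled Dam-Lamin A reads per kb, far above the class median, with 0.85 reads of Dam-Lap2b and 0.49 of the reference. Its top feature held 27.5% of its 93939 Dam-Lamin A reads, so most of them lay in other features. The levels of this domain, 0.38 and 0.74, lay well inside the range of the class.

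At equal distance from an edge, short domains were lower inside than long intervals, and the gap widened inwards. In the first 10 kb inside, the mean was 0.26 in the profile labelled LMNA and 0.58 in that labelled Lap2b over 1228 edges, against 0.40 and 0.79 at the ends of intervals of 1 Mb or longer. At 40 to 50 kb inside it was 0.50 and 0.61, against 0.94 and 1.03, which left short domains 0.44 and 0.42 lower. Long intervals climbed over these 50 kb in both profiles. Short domains climbed in the profile labelled LMNA and stayed nearly level in that labelled Lap2b, at 0.58, 0.55, 0.54, 0.57 and 0.61 in successive 10 kb steps.

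The drop at the edge was nearly as large at short domains as at long intervals. The first 10 kb outside averaged -0.66 and -0.54 at short domains and -0.61 and -0.44 at long intervals. The step from outside to inside was 0.90 ± 0.59 in the profile labelled LMNA and 1.12 ± 0.33 in that labelled Lap2b per short domain, against 0.97 and 1.21 per long interval. It was upwards at 1053 and 1200 of 1205 edges with values on both sides. The edges were read from the list, so a step there was built into the choice. Beyond the first 10 to 20 kb the outside level climbed back, to -0.07 and 0.13 at 90 to 100 kb, where neighbouring intervals are included.

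**Figure D2:**
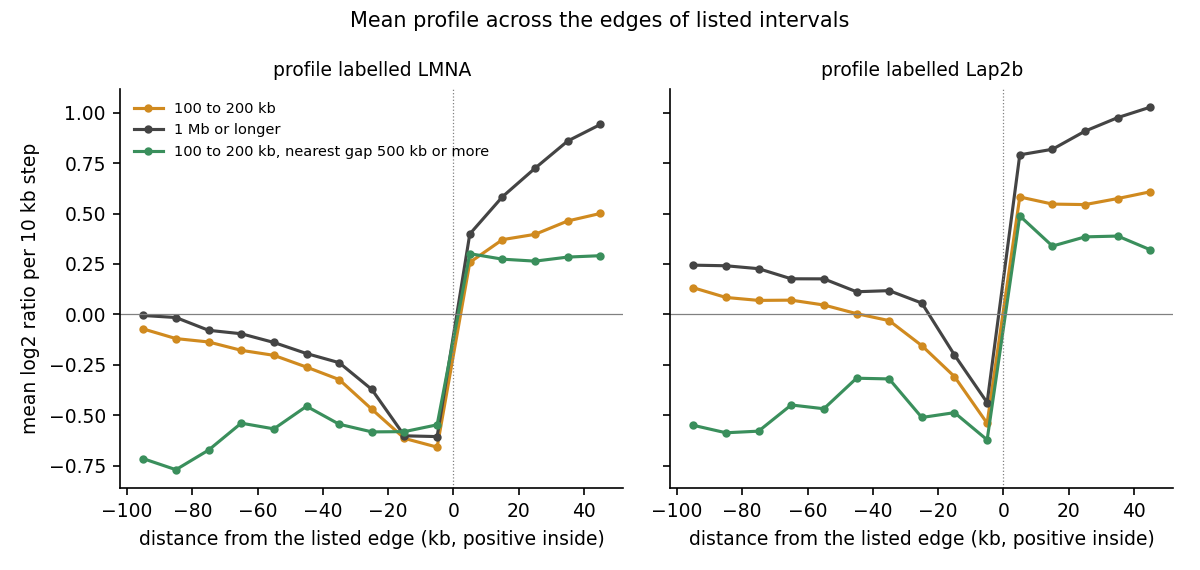
Mean log2 ratio in 10 kb steps (y axis) by distance from a listed edge (x axis, kb, positive inside), for the profile labelled LMNA (left) and Lap2b (right); lines are short domains, short domains whose nearest neighbour is 500 kb or more away, and intervals of 1 Mb or longer. Long intervals rise to 0.94 and 1.03 at 40 to 50 kb inside, short domains to 0.50 and 0.61.

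The middle of the domains was slightly higher than their ends on average. Each domain was cut into 10 equal parts. The middle 4 parts exceeded the outer 4 (the first and last 2) by 0.14 ± 0.45 in the profile labelled LMNA and by 0.04 ± 0.27 in that labelled Lap2b. The centre was the higher in 384 domains (62.5%) and 347 (56.5%). In intervals of 1 Mb or longer the same difference was 0.26 and 0.24. The highest of the 10 parts was among the middle 4 in 45.4% of short domains in the profile labelled LMNA and in 44.5% in that labelled Lap2b. The mean of the parts went from 0.30 at the left end over 0.51 to 0.32 at the right end in the profile labelled LMNA, and from 0.58 over 0.61 to 0.57 in the other.

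The extremes of shape were far outside this mean. The domain on chromosome 1 from 177605605 to 177791644 had the highest centre, 1.67 and 1.08 above its ends, with levels of 2.06 and 1.43. On chromosome 10 the domain from 125226890 to 125373269 had centre differences of 1.07 and 0.93, and that from 87675294 to 87780675 of 1.41 and 0.56. The reverse, a trough between raised ends, was ranked by the mean of both profiles and was deepest on chromosome 9 (32850137 to 32957250), with -1.31 and -0.93. It was followed by chromosome 5 (8903780 to 9055595) with -1.401, the lowest value in the profile labelled LMNA, and -0.72, and by chromosome 3 (35183089 to 35285774) with -1.19 and -0.61. None of these 3 trough domains overlapped the Dam-Lap2b list, and their levels were low, from -0.25 to 0.15 in the profile labelled LMNA and from 0.19 to 0.44 in that labelled Lap2b. Among all 614 short domains, 228 (37.1%) had no overlap with that list. The 3 were picked by their values in the same profiles, so their level and overlap are tied to that pick.

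The flanks showed that short domains sat in mixed surroundings. The 100 kb on both sides averaged -0.29 ± 0.58 in the profile labelled LMNA and -0.05 ± 0.46 in that labelled Lap2b, which put the domains 0.70 and 0.61 above their flanks. Both flanks were below 0 in 274 and 203 domains, 1 flank was above 0 in 256 and 285, and both were above 0 in 82 and 124. The domain was above the mean of its flanks in 563 and 581 of 614 cases. The list was made from the measured signal, so a rise over the flanks was built into the choice. The flanks also take in neighbouring listed intervals. At domains whose nearest neighbour lay 500 kb or more away, the mean 90 to 100 kb outside was -0.72 and -0.55.

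The distance to the next interval of the same list varied over several orders of magnitude, from 100 bp to 5.01 Mb, with a median of 50.05 kb. The nearest gap was under 25 kb in 204 domains (33.2%), beside 37.6% of all intervals of the list and 39.6% of the longer ones. It was 25 to 100 kb in 199 domains, 100 to 500 kb in 166 and 500 kb or more in 45 (7.33%, against 7.84% of longer intervals). By this measure short domains were no closer to their neighbours than longer ones were.

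Domains near a neighbour had the higher levels. From the closest to the most distant class the median level was 0.50, 0.33, 0.29 and 0.15 in the profile labelled LMNA. In the profile labelled Lap2b it was 0.71, 0.53, 0.40 and 0.30. The quartile ranges of neighbouring classes overlapped in both. Over the 614 domains, the correlation of level with the logarithm of the gap was -0.19 in the profile labelled LMNA and -0.36 in that labelled Lap2b. The points share the reference library, and the value is a description.

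**Figure D3:**
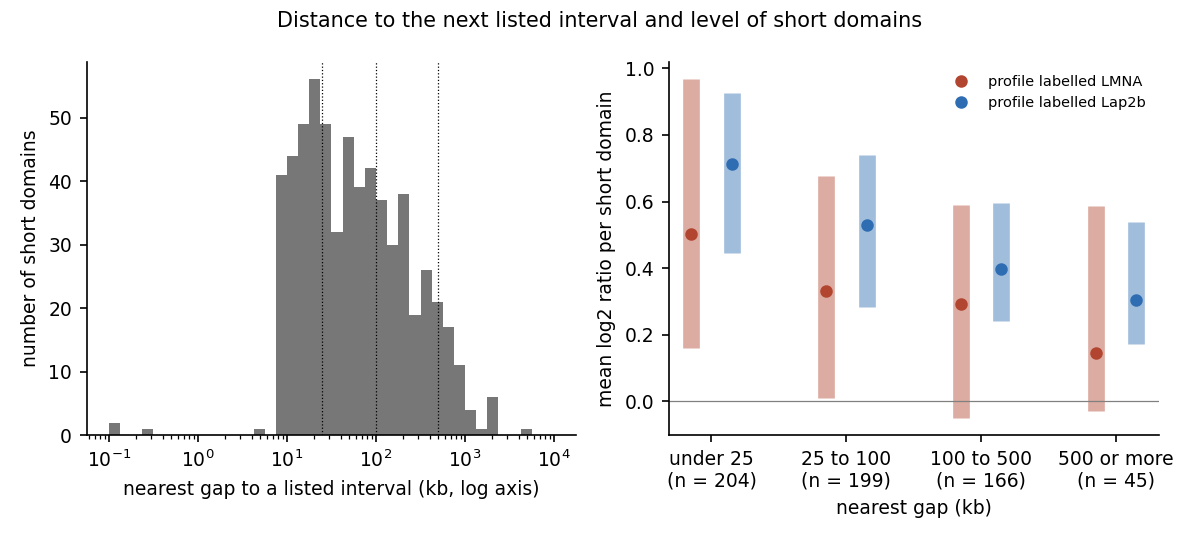
Left, number of short domains (y axis) by nearest gap to another interval of the list (x axis, kb, log scale; dotted lines at 25, 100 and 500 kb). Right, median log2 ratio (points) and quartile range (bars) of both profiles by class of nearest gap; the medians fall from 0.50 and 0.71 under 25 kb to 0.15 and 0.30 at 500 kb or more.

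Where the gap was short, the profile dipped in it. The gaps under 25 kb had a median length of 14.3 kb, and 201 of them held enough features for a value. Their median level was -0.66 in the profile labelled LMNA and -0.46 in that labelled Lap2b, and 158 and 194 of the 201 were below 0. Of all autosomal bins, 54.2% and 57.7% were above 0. The list was made from the measured signal, so low levels between its intervals were built into the choice. Of the 204 domains with such a gap, 27 had one on both sides and 177 on 1 side. Joining intervals across these gaps put the 204 domains into stretches with a median of 666 kb, from 226 kb to 5.42 Mb, and 68 of them into stretches of 1 Mb or longer. The neighbour itself had a median length of 320 kb, and was another short domain in 59 cases and 1 Mb or longer in 28. In the list, such domains were thus set off by a narrow gap from a neighbour that was mostly longer than they were.

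Of the 614 short domains, 331 stood in runs of 2 or more in the list, with 43 runs of 3 or more. Short domains made up 30.6% of the listed autosomal intervals. The number for a random order was not computed, so whether they followed each other more often than that was not tested. The longest run held 7 domains on chromosome 13 between 112068300 and 115382678, a stretch of 3.31 Mb. From left to right their levels in the profile labelled LMNA were 0.39, 0.67, 0.58, 0.37, -0.25, 0.14 and -0.34. In the profile labelled Lap2b they were 0.45, 0.41, 0.42, 0.28, 0.14, 0.12 and 0.15. The first 4, between 0.28 and 0.67 in both profiles, lay 92.3 to 129 kb apart. A gap of 1126 kb separated them from the last 3, which were lower in both profiles.

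The most isolated domain was also the shortest, on chromosome 11 from 99528025 to 99628218. It lay 5.01 Mb from the nearest interval of the list, had every bin above 0 in both profiles, and stepped up by 1.29 and 1.25 at its edges, yet it had no overlap with the Dam-Lap2b list. The domain on chromosome 8 from 131049452 to 131157049 was the last of its chromosome, 2.11 Mb from its only neighbour, with levels of 0.64 and 0.55. On chromosome 13 the domain from 36874174 to 36976921 lay 2.09 Mb from the nearest interval, and its levels were of opposite sign (-0.49 and 0.20).

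The share of short domains covered by the Dam-Lap2b list was lower than that of longer intervals. Of their length 57.9% was covered, against 90.7% in the longer intervals. There was no overlap for 228 domains (37.1%), beside 14.9% of all intervals. In the longer classes 69 of 671, 2 of 391 and 0 of 328 had none. Fewer than 50% was covered in 15 domains, 50 to 90% in 115 and 90% or more in 256, of which 123 were covered whole. Most domains were thus either covered by 90% or more or not at all. The longest overlapping intervals of the Dam-Lap2b list all measured 100 kb or more. An interval of that length can cover most of a short domain but little of a long one. The part of this in the shares was not tested.

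Where the lists overlapped, the other list mostly had a short interval too. The longest overlapping interval of the Dam-Lap2b list measured 100 to 200 kb in 267 of 386 domains, 200 to 500 kb in 86, 500 kb to 1 Mb in 23 and 1 Mb or more in 10. The edges of the overlapping intervals were identical at 63 of 772 edges and within 10 kb at 51.4%, with a median distance of 9.37 kb. In the opposite direction, 119 of the 763 short intervals of the Dam-Lap2b list (15.6%) had no overlap with the Dam-Lamin A list, and 81.5% of their length was covered.

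The domains missing from the Dam-Lap2b list were the low ones of the profile labelled LMNA. Their median level was -0.03 in that profile and 0.32 in the one labelled Lap2b, against 0.67 and 0.69 in domains covered by 90% or more. Levels below 0 in the profile labelled LMNA were found in 122 of the 228 domains without overlap and in 16 of the other 386. The profile labelled Lap2b was the higher in 204 of 228 domains without overlap (89.5%) and in 111 of 256 covered by 90% or more (43.4%). Their mean difference was 0.36 in the first and -0.06 in the second. With features weighted by length, the second value turned direction: the profile labelled Lap2b was then the higher in 195 of the 256 domains covered by 90% or more, with a median difference of 0.25, and in 224 of the 228 without overlap, with a median of 0.70. In reads, domains without overlap had 0.714 times the Dam-Lamin A reads, 0.968 times the Dam-Lap2b reads and 1.22 times the reference reads of those covered by 90% or more. These values are tied to the choice of domains, since both lists were made from the measured signal.

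**Figure D4:**
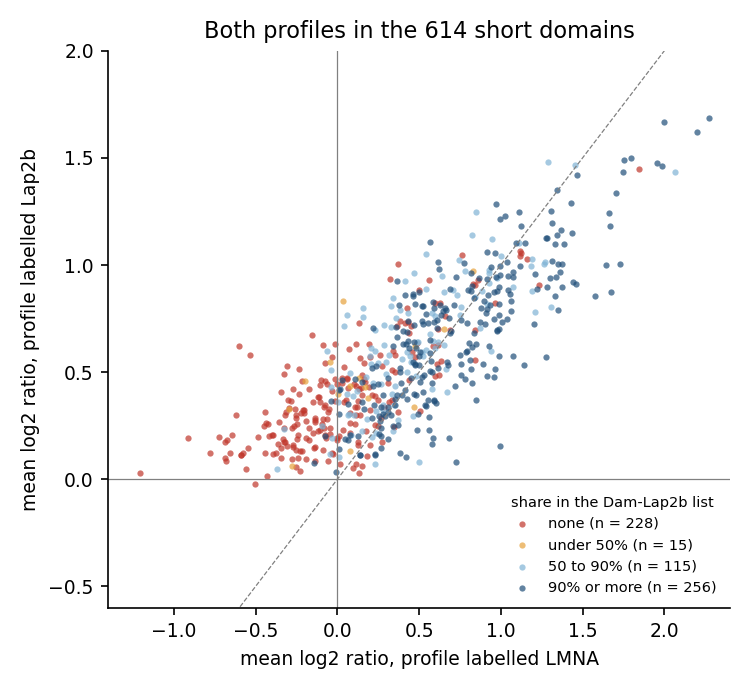
Mean log2 ratio of each short domain in the profile labelled LMNA (x axis) and in that labelled Lap2b (y axis), coloured by the share of its length in the Dam-Lap2b list; the dashed line marks equal values. The 228 domains without overlap (red) lie mostly at the left and above the line, with medians of -0.03 and 0.32, and the 256 covered by 90% or more (dark blue) around it, with medians of 0.67 and 0.69.

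Overlap and isolation were partly separate. Domains without overlap made up 29.9% of those with a nearest gap under 25 kb, 39.2% at 25 to 100 kb, 39.2% at 100 to 500 kb and 53.3% (24 of 45) at 500 kb or more. Among domains that overlapped the Dam-Lap2b list, the median level in the profile labelled Lap2b fell over the 4 gap classes, from 0.80 over 0.62 and 0.52 to 0.40. Among those without overlap it fell from 0.47 over 0.32 and 0.27 to 0.25. The profile labelled LMNA had no such steady order: its medians were 0.66, 0.57, 0.50 and 0.53 with overlap and 0.07, -0.06, -0.09 and 0.00 without. The order of levels by gap was thus kept on both sides of the division in the profile labelled Lap2b only.

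Chromosome 2 held the domains in which the profiles differed most. The domain from 45321174 to 45428349 had -1.21 in the profile labelled LMNA and 0.03 in that labelled Lap2b, and was also the lowest of all in the mean of both. The next lowest, from 45580600 to 45726221 and from 46146599 to 46292152, had -0.92 and 0.19, and -0.78 and 0.12. Between them lay the interval of 200370 bp that just missed the length limit, described above. These 4 neighbouring intervals, spread over about 1 Mb, thus all combined a strongly negative value in the profile labelled LMNA with a value just above 0 in the other, and none overlapped the Dam-Lap2b list. Further along the same chromosome, the domains from 65256104 to 65360421 (-0.60 and 0.62) and from 114826197 to 114986728 (-0.53 and 0.58) were apart by more than 1.1.

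In the opposite direction, the profile labelled LMNA exceeded the other most on chromosome 5 (129573613 to 129677109), with 1.00 against 0.15. It was followed by chromosome 9 (98721072 to 98834336), with 1.68 against 0.87, and chromosome 11 (108622055 to 108743385), with 1.73 against 1.00. All 3 were covered whole by the Dam-Lap2b list and lay 11.3 to 17.5 kb from their nearest neighbour. In the class, 123 of 614 domains were covered whole and 33.2% had a nearest gap under 25 kb. The coverage of these 3 was the opposite of that of the chromosome 2 domains. Both sets were picked by the difference of the profiles, and the list was made from the measured signal, so the contrast is tied to the choice.

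Some short domains bordered stretches without features, which was noticed only in the values. Such a stretch, a gap of more than 90 bp between neighbouring features, bordered 29 edges of 23 domains (3.75%), against 8.49% of longer intervals. At 18 of the edges it was 50 to 53 kb long and at 5 it was 100 bp. The median levels of these 23 domains were 0.99 and 1.00, against 0.36 and 0.50 in the other 591. The 6 domains with such a stretch on both sides had medians of 1.201 and 1.22, and all 6 were covered whole by the Dam-Lap2b list. Of all 614 short domains, 123 were covered whole. The domains of 146 and 195 kb on chromosome 4 had such stretches on both sides, and Dam-Lap2b intervals of the same lengths covered them. Where both lists end at the same features, whole coverage is built in. At such an edge the listed interval ends where the features end.

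These domains included the highest of the class. The 3 highest levels were on chromosome 4 from 145821463 to 145967376 (2.27 and 1.68), on chromosome 13 from 67994539 to 68149525 (2.20 and 1.62) and on chromosome 4 from 60810644 to 61005208 (1.999 and 1.67). Each bordered a gap of 50 kb without features. In all, 4 of the 10 highest were among the 23. The smallest gaps between listed intervals arose in the same way on chromosome 13 (15344783 to 15486042, levels 0.87 and 0.94) and chromosome 2 (77786706 to 77980882, levels 0.97 and 1.29), where 100 bp separated neighbours. Next smallest was a gap of 286 bp, on chromosome 1 (145296834 to 145455595, levels 1.37 and 1.16).

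The order of the profiles depended on the length of the features, an analysis added after the levels had been seen. In short domains, features under 100 bp averaged 0.77 in the profile labelled LMNA and 0.60 in that labelled Lap2b. Those of 100 to 250 bp had 0.76 and 0.55, those of 250 to 500 bp 0.54 and 0.53, those of 500 to 1000 bp 0.18 and 0.70, and those of 1000 bp or more -0.12 and 0.84. The first profile fell with feature length and the second rose above 500 bp, so that above 500 bp their order was the reverse. In intervals of 1 Mb or longer the same classes went from 1.47 and 1.21 to 0.65 and 1.88, and outside both lists from -0.58 and -0.76 to -1.15 and -0.71, so the crossing was not particular to short domains.

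**Figure D5:**
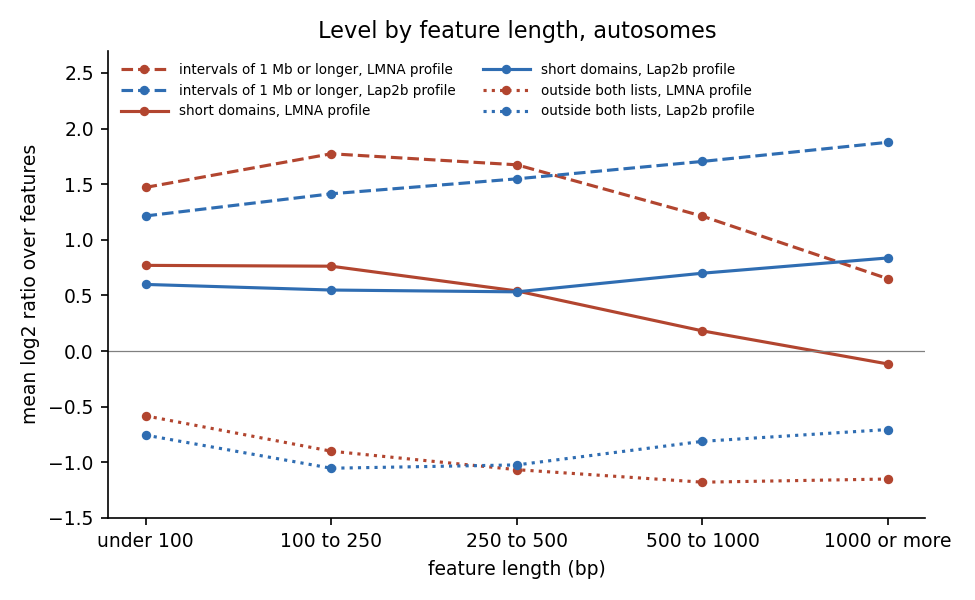
Mean log2 ratio over features (y axis) by feature length in bp (x axis) for the profiles labelled LMNA (red) and Lap2b (blue), in intervals of 1 Mb or longer (dashed), short domains (solid) and outside both lists (dotted). In short domains the red line falls from 0.77 to -0.12 while the blue line rises from 0.60 to 0.84.

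Weighting features by their length changed the comparison of the profiles but not the place of short domains. The levels became 0.21 and 0.67, and the difference rose from 0.14 to 0.45. The profile labelled Lap2b was then the higher in 542 domains instead of 417, and that labelled LMNA was above 0 in 392 instead of 476. Over all autosomal bins the difference moved too, from 0.07 to 0.35. Relative to bins outside both lists, short domains stood 1.42 and 1.47 higher with equal weights and 1.32 and 1.51 higher with length weights. With summed reads they stood 1.501 and 1.61 higher. In height above the surroundings the profiles thus differed by 0.196 at most, while the order of their levels in short domains moved together with that of all bins.

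The density of GATC fragments was much the same in short and long domains, with 25.5 ± 2.75 and 25.7 ± 1.77 features per 10 kb. Within the short domains it moved with the level. It was 24.7 in domains without overlap with the Dam-Lap2b list and 26.3 in those covered by 90% or more. Over 614 domains the correlation with density was 0.41 in the profile labelled LMNA, 0.27 in that labelled Lap2b and -0.40 for the difference of the profiles. With features weighted by length, the correlations of the levels were 0.39 and 0.25. The part of density in the overlap was not tested.

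Short domains were present on all 19 autosomes, at 25.4 per 100 Mb overall. Chromosome 13 had the most, 57 domains or 48.6 per 100 Mb, which was 43.8% of its listed intervals, followed by chromosomes 10 and 19 with 34.6 and 34.3 per 100 Mb. The fewest were on chromosomes 17, 7 and 4, with 15.2, 15.4 and 17.7 per 100 Mb. The share without overlap with the Dam-Lap2b list was 37.1% in the whole class. It was highest on chromosomes 4 (16 of 27, 59.3%), 17 (8 of 14, 57.1%) and 2 (20 of 36, 55.6%). It was lowest on chromosome 7 (4 of 23, 17.4%), and these counts are small. Chromosome 7 also had the highest median levels, 0.84 and 0.76, in its 23 domains.

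Along the chromosomes the number of domains varied little between large stretches. Cut into 4 equal stretches from the first feature to the last, the chromosomes held 153, 148, 149 and 164 domains. All listed intervals numbered 517, 469, 511 and 507 there. Within 3 Mb of the first feature, which on mouse chromosomes lies next to the centromere, there were 15 domains or 26.3 per 100 Mb. Within 3 Mb of the last feature there were 22, or 38.6 per 100 Mb, against 25.4 over whole autosomes. All listed intervals were not counted in these end windows. Whether short domains in particular were denser there was thus not tested.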

How the data were processed

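DamID sequencing of mouse embryonic fibroblasts was analysed in 3 samples, 1 in each group, grouped by the group given in the labels. Reads were aligned with Bowtie to mm9, per the submitters' processing notes, which name the tool and the build without roles. The counting, normalization and domain calling are not given in the sources used here. The authors deposited, per sample, a profile of log2 ratios per feature and a list of intervals without scores. No separate Dam Only file was used here. Whole reads behind the log2 values, with the smallest common denominator up to 5000, were found for 99.9968% of features (constants 0.0846 and 0.0222), and are lower bounds used for depth and for alternatives. Profiles were averaged over features in bins of 10 kb (5 features or more), bins went to the interval that held their middle, and an interval's value was the mean of its bins. Shape used 10 equal parts of each interval, and flanks were 100 kb. Python 3.11.15, numpy 2.4.6, pandas 2.3.3, scipy 1.17.1 and matplotlib 3.10.9 were used, and the scripts were tested on simulated domains. No test was run, since groups had 1 sample and the domains come from the measured signal. Regions named were the shortest and longest domain, the next interval beyond each limit, the 3 highest and 3 lowest in level, nearest gap, profile difference and centre minus ends, the longest run, and the 3 chromosomes with most and fewest. The domains and lists were chosen with earlier results of these data known. Alternatives were other bin sizes, weights, length limits, joined intervals, the other list and chromosome X. The reference tables used another build than mm9, so no gene was assigned and no sequence printed.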

Additional observations from a re-analysis of the deposited data

Results flagged for a closer look

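Several groups of short domains, and single domains named above, had values of opposite sign in the 2 profiles. None of these differences was tested, as each profile is 1 sample. The 228 domains without overlap with the Dam-Lap2b list had a median level of -0.0323 in the profile labelled LMNA and 0.323 in that labelled Lap2b. Their median centre minus ends was 0.0793 and -0.00472. In the 45 domains with a nearest gap of 500 kb or more, the median centre minus ends was 0.0468 and -0.0166. The centre minus ends medians of both groups were small beside the SD over all short domains given above, so their signs carry little weight.

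Of the domains named above, 7 had levels of opposite sign. On chromosome 2, the domain of 107 kb had -1.21 and 0.0293, the domains of 146 kb had -0.92 and 0.19, and -0.78 and 0.12. Also on chromosome 2, that of 104 kb had -0.60 and 0.62 and that of 161 kb had -0.53 and 0.58. The domain of 103 kb on chromosome 13 had -0.49 and 0.20, and that of 152 kb on chromosome 5 had -0.25 and 0.19. In all 7 the negative value was that of the profile labelled LMNA. Only 1 of the 614 short domains was not above 0 in the profile labelled Lap2b, so this direction was set by the choice of list.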

How the results depend on the processing

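For 17 results, 113 alternative values were computed, of which 107 kept their direction and moved by less than the SD over domains (for steps and levels by distance from an edge, the SD over edges; for shares, the exact Clopper-Pearson 95% interval; for the median gap, the interquartile range; for counts, 1.5 times). These yardsticks are wide, since no replicate gave a narrower one. Taking short intervals from the Dam-Lap2b list reversed the profile difference, to -0.0158, lowered the edge step of the profile labelled Lap2b to 0.606 while that of the profile labelled LMNA rose from 0.90 to 1.505, and put 82.3% with 50% or more and 15.6% with none of their length in the other list. With 90% of the length required, 41.7% of domains counted as shared in place of 60.4%. Chromosome 17 was 19th by domains per 100 Mb and rank 17 by domains per 100 listed intervals. The number of domains was 410 when intervals were joined across gaps under 25 kb first and 591 without the 23 at stretches lacking features, an alternative added after seeing the data. The 5 and 20 kb bins were not run for centre minus ends, which uses 10 equal parts. No paired analysis was possible because each group had 1 sample. Features under 100 bp in short domains had median reads of 1 (reference), 2 (LMNA) and 2 (Lap2b), so single short features were thinly covered. With no replicates, the spread between cultures is unknown for every value.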
